A study of Mus musculus with 12 samples.

Results

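The 37 genes of the mouse mitochondrial genome were read in 6 RNA-seq libraries, each deposited under the number of 1 mouse (678, 687, 688, 698, 700 and 703). The members were taken from the GENCODE M21 annotation of GRCm38 as all genes on chromosome M, and comprise 13 mRNAs, 2 rRNAs and 22 tRNAs out of 55180 annotated genes with a listed transcript. The study asked what the loss of Larp1, an RNA-binding protein that acts on mRNAs of the translation machinery, does in the mouse brain. Its labels describe 12 cortex samples, 6 from mice that carry Nestin-Cre with WT Larp1 and 6 from Nestin-Cre;Larp1-flox/flox (KO) mice, each as 3 replicates in 2 parts. According to the methods the cortex RNA came from male mice, and nothing read here states their age. The Cre is driven by the Nestin promoter, which is active in progenitors of neurons and of some glia, so cells of other origin in the cortex keep Larp1, and both genotypes carry the Cre. Which mouse number belongs to which genotype is unknown here. Therefore values are those of single libraries or their lowest, median and highest, no genotype was assigned and no test between genotypes was run.

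The mitochondrial genome is a small circle inherited from the mother, present in many copies per cell. It is transcribed from both strands into long precursors, from which the tRNAs are cut out and thereby free the mRNAs and rRNAs between them. Its mRNAs encode core subunits of the respiratory chain and of the ATP synthase, its rRNAs form the mitochondrial ribosome and its tRNAs read the mitochondrial code, while all other mitochondrial proteins are encoded in the nucleus. Copies of mitochondrial DNA are also found in nuclear chromosomes, where they are annotated as pseudogenes.

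As to the whole series, totals ran from 34689262 to 44463362 expected counts per library, a depth at which 3 counts equal 0.0675 to 0.0865 CPM. The tissue of each file is inferred to be cortex and is not stated. The study also describes RNA-seq of synaptosomes from isocortex. Whether the markers below tell cortex from other brain regions or from synaptosomes was not tested. The 6 cortex markers (Snap25, Slc17a7, Camk2a, Gad1, Slc1a2 and Mbp) were all detected and summed to between 2287 and 2943 TPM, a measure of RNA share that is scaled for transcript length. The 4 markers of other tissues (Alb, Myh6, Acta1 and Ins2) summed to between 2.05 and 4.50 TPM, most of it Acta1, a muscle actin, and Alb and Ins2 did not exceed 0.07 TPM. TPM was scaled over all listed transcripts, and nuclear miscellaneous RNAs such as Rn7s1, an RNA of the signal recognition particle, held 36.4% to 47.8% of it.

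The genes lie on the circle with almost no space between them, which matters for how reads can be counted. Of the 36 neighbouring pairs from mt-Tf to mt-Tp, 12 abut, 15 are separated by 1 to 32 bases and 9 overlap. Of the 9 overlaps, 6 join genes of the same strand and 3 join genes of opposite strands. The longest is between mt-Atp8 (chrM:7766-7969) and mt-Atp6 (chrM:7927-8607), subunits of the ATP synthase that are carried on 1 bicistronic mRNA. The 43 bases that they share are shown whole, since any read inside them belongs to both genes:

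mt-Atp8 and mt-Atp6 overlap: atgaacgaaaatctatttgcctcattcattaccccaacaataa

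The second bicistronic pair, mt-Nd4l (chrM:9877-10173) and mt-Nd4 (chrM:10167-11544), subunits of Complex I, shares 7 bases, in capitals here within the bases around the junction:

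mt-Nd4l and mt-Nd4 junction: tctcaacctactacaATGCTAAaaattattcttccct

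Of the 13 mRNAs, 12 are encoded on the plus strand of the reference and 1, mt-Nd6 (chrM:13552-14070), on the minus strand. The sequence of mt-Nd6 held 28.1% G and 5.97% C, whereas the 12 plus-strand mRNAs held 5.88% to 16.1% G and 22.1% to 30.0% C. A complete stop (TAA or TAG) closed 10 of the 13 annotated mRNAs. The other 3 (mt-Co3, mt-Nd4 and mt-Cytb) ended in a single T, and such stops are known to be completed by the addition of a poly(A) tail. The last bases of 3 of them are shown with the stop letters in capitals, 1 for each kind of ending:

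mt-Nd1: ccaccatacataTAG
mt-Co1: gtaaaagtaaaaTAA
mt-Cytb: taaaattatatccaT

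The first codon was ATG in 9 mRNAs, while mt-Nd1 began with GTG, mt-Nd2 with ATA, mt-Nd3 with ATT and mt-Nd5 with ATC, start codons that the mitochondrial code allows.

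A large part of each library came from the mitochondrial genome. The 37 genes held 24.0% to 27.4% of expected counts, with a median of 25.5%, and 22.1% to 26.5% of TPM, with a median of 24.7%. Nearly all of it was rRNA, although the libraries were made from RNA depleted of rRNA.

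**Figure D1:**
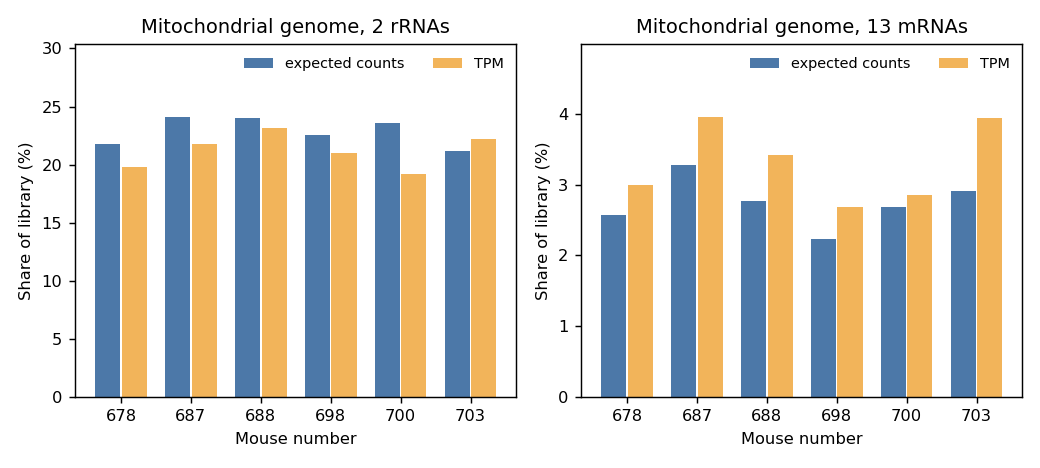
Share of each library (y axes, %) held by the 2 rRNAs (left) and by the 13 mRNAs (right) of the mitochondrial genome, for the 6 numbered mice (x axes), as a share of expected counts and of TPM. The rRNAs held 19.2% to 24.1% and the mRNAs 2.23% to 3.96% over both units, and mouse 698 had the lowest mRNA share in both.

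The 2 rRNAs are mt-Rnr1 (chrM:70-1024), the RNA of the small mitochondrial ribosomal subunit, and mt-Rnr2 (chrM:1094-2675), that of the large subunit. Together they held 21.8%, 24.1%, 24.0%, 22.5%, 23.5% and 21.1% of expected counts in mice 678, 687, 688, 698, 700 and 703. The shares thus lay within 1.14-fold of each other, with mouse 703 lowest and mouse 687 highest. In the transcriptome as a whole, mt-Rnr1 and mt-Rnr2 held ranks 3 and 4 by median TPM, after Rn7s1 and Rn7s2.

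The TPM of mt-Rnr1 was 110191, 117500, 127852, 114182, 102345 and 124719 in the same order of mice. The TPM of mt-Rnr2 was 87909, 100357, 103447, 95479, 89689 and 97734. The small-subunit RNA was therefore above the large-subunit RNA per length in each library, by 1.14-fold to 1.28-fold with a median of 1.22. In expected counts, which are not scaled for length, the ratio of mt-Rnr1 to mt-Rnr2 was 0.637 to 0.713. These are levels after rRNA depletion, and how far the kit removed either rRNA was not tested.

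The 13 mRNAs together held 2.57%, 3.28%, 2.77%, 2.23%, 2.69% and 2.90% of expected counts in mice 678, 687, 688, 698, 700 and 703. In TPM the shares were 2.99%, 3.96%, 3.41%, 2.68%, 2.86% and 3.94%. Mouse 687 was highest and mouse 698 lowest in both units, and mouse 703 came next to mouse 687 in both, more closely in TPM than in counts. TPM depends on the other RNAs of the library, and in mouse 703 nuclear protein-coding genes held 28.8% of TPM, the highest of the 6 values, against 22.7% in mouse 700, the lowest. Relative to the counts of nuclear protein-coding genes, the 13 mRNAs amounted to 3.49% to 5.28%. The rRNAs exceeded the mRNAs by 5.50-fold to 7.82-fold in TPM, with mouse 687 lowest and mouse 698 highest.

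The tRNAs were close to the limit of detection. All 22 are 59 to 75 bases long, shorter than the mean fragment of 153 to 165 bases that the deposited effective lengths imply, and the authors' effective length and TPM were 0 for each of them in every library. The files list 14, 11, 16, 10, 15 and 5 expected counts of tRNA in mice 678, 687, 688, 698, 700 and 703. Counts above 0 in at least 1 library were listed for 9 tRNAs, 6 on the plus and 3 on the minus strand, and 13 were at 0 throughout.

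Of the 71 tRNA counts over all libraries, 44 (62.0%) were of mt-Tm, the methionine tRNA that serves both initiation and elongation in mitochondria (chrM:3845-3913). Its counts were 9, 6, 10, 7, 9 and 3. Its sequence is shown, as the most counted of the 22, with the anticodon in capitals, and its last base lies directly before the first base of mt-Nd2:

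mt-Tm: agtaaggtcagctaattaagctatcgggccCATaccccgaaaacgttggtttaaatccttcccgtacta

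The remaining 8 with a count were mt-Tv (at most 2 counts per library), mt-Tl1 (at most 3 per library), mt-Tw (at most 2), and mt-Tq, mt-Tn, mt-Ts1, mt-Tk and mt-Th (at most 1 each). A tRNA listed at 0 may have up to 3 counts, so the files do not order the 22 tRNAs, and a library of longer fragments cannot show their level.

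The mRNAs were among the most abundant coding RNAs. By median TPM, 9 of the first 10 and 12 of the first 20 genes annotated as protein-coding were mitochondrial, and mt-Nd6 ranked number 74. However, counts are also listed under nuclear copies of several of these mRNAs. The alignments show that some copies are identical to the mitochondrial gene over all aligned bases.

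When the sequences of the 37 genes were compared with all annotated nuclear transcripts, 11 transcripts matched an mRNA at 95% identity or more over at least 200 bases. They are copies of 9 of the 13 mRNAs, and all are annotated as pseudogenes. No such match was found for mt-Nd1, mt-Atp8, mt-Nd6 or mt-Cytb, nor for either rRNA. The tRNAs are too short to be assessed in this way, and mt-Atp8, with 204 bases, barely exceeds the required 200. Of the 11 copies, 7 lie side by side on chromosome 1 (chr1:24611535-24616197, minus strand) and held at least 99.9% of the copies' counts in each library. A set of 3 lies on chromosome 2 (chr2:22587291-22590533) and 1, a copy of mt-Nd5, on chromosome 13 (chr13:85126550-85127514).

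The 7 transcripts of chromosome 1 follow the order and spacing of the mitochondrial genome from chrM:6390 to chrM:11042, a stretch of 4653 bases. The distances between their aligned starts differed from those on the mitochondrial genome by at most 1 base. Of 4140 aligned bases, 4138 were the same. mt-Atp8 (chrM:7766-7969) also lies within this stretch. Only annotated transcripts were searched, so whether chromosome 1 holds a copy of it was not assessed.

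**Figure D2:**
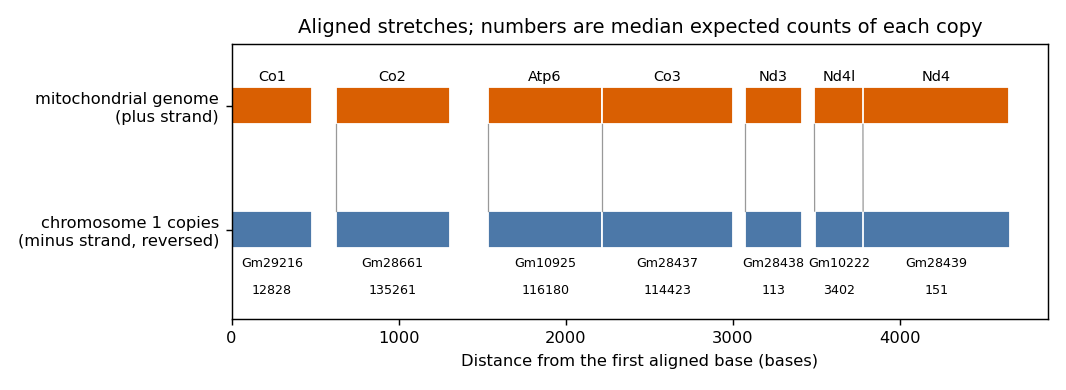
Stretches of the mitochondrial genome (top) and of chromosome 1 (bottom, shown in reverse) that align with each other, by distance in bases from the first aligned base (x axis), with the median expected count of each copy over the 6 libraries under its name. The 7 copies keep the mitochondrial order, and Gm28661, Gm10925 and Gm28437 had medians of 135261, 116180 and 114423 counts while Gm28439 had 151.

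For the 4 copies with the largest shares of the counts within their own pair, all aligned bases were identical to the mitochondrial gene. Gm28661 matched the first 681 of the 684 bases of mt-Co2, Gm10925 the first 678 of the 681 bases of mt-Atp6, Gm28437 the first 783 of the 784 bases of mt-Co3 and Gm10222 the first 294 of the 297 bases of mt-Nd4l. The 3′ ends are shown because they hold the only bases by which each annotated pair differs, in capitals, all of them stop letters that the annotation of the copy leaves out:

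mt-Co2: gaaaactgatctgcttcaataattTAA
Gm28661: gaaaactgatctgcttcaataatt
mt-Atp6: agcctatatctacatgataatacaTAA
Gm10925: agcctatatctacatgataataca
mt-Co3: gtctccatttattgatgaggatctT
Gm28437: gtctccatttattgatgaggatct
mt-Nd4l: caaaatctcaacctactacaatgcTAA
Gm10222: caaaatctcaacctactacaatgc

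A single substitution set the other aligned pairs of chromosome 1 apart where one was present. Gm29216 aligned with the last 483 bases of mt-Co1 and differed by A1066T, and Gm28438 aligned with mt-Nd3 up to base 345 and differed by T3C, counted from base 1 of the mitochondrial mRNA, with the mitochondrial base first. The differing base is in capitals:

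mt-Co1: ggaAttgttttatcca
Gm29216: ggaTttgttttatcca
mt-Nd3: atTaacctgtacact
Gm28438: atCaacctgtacact

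Gm28438 and Gm28439 are named here for their place in the block and were chosen after their values were seen. Gm28439 aligned with the first 876 of the 1378 bases of mt-Nd4 without a difference.

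The counts were divided very unequally within these pairs. Gm28661 held 128715, 177788, 144352, 110951, 126806 and 141807 expected counts in mice 678, 687, 688, 698, 700 and 703. mt-Co2 itself, a subunit of cytochrome c oxidase that takes up electrons from cytochrome c, held 17971, 19331, 13518, 8868, 18103 and 14714. The copies of mt-Co2 thus had 87.5% to 92.6% of the counts of the pair, with a median of 90.4%, and led in all 6 libraries.

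The same order was found for a further 2 mRNAs. Gm10925 had 80.3% to 84.9% of the counts of the pair with mt-Atp6, the subunit that forms the proton channel of the ATP synthase. Gm28437 had 71.9% to 83.5% of those of the pair with mt-Co3, another subunit of cytochrome c oxidase. In contrast, Gm10222 had 20.9% to 43.1% of the pair with mt-Nd4l, and the copies of mt-Co1, of which Gm29216 aligns with 483 of 1545 bases, had 2.54% to 4.59%.

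For the other 4 mRNAs with a copy, few counts went to it. The copy of mt-Nd3 had 0% to 2.73% of the counts of the pair, that of mt-Nd4 0.0817% to 0.154%, that of mt-Nd5 0.00873% to 0.0214% and that of mt-Nd2 0.00945% to 0.0186%. Gm28439, which was identical to mt-Nd4 over its 876 aligned bases, had between 85.9 and 206 counts. Why the counts were divided so differently between pairs was not tested.

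**Figure D3:**
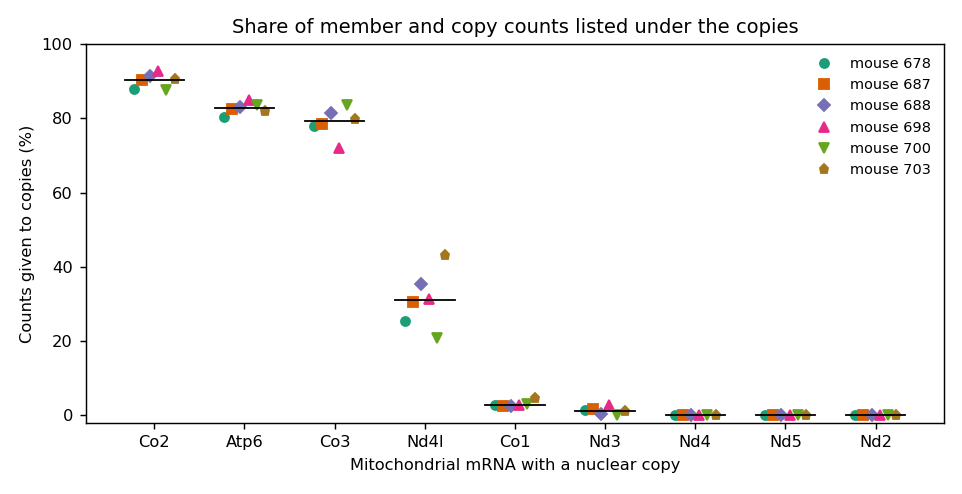
Share of the summed counts of a mitochondrial mRNA and its nuclear copies that the files list under the copies (y axis, %), for each of the 9 mRNAs with a copy (x axis), 1 point per library and a line at the median. Medians were 90.4% for mt-Co2, 82.8% for mt-Atp6, 79.2% for mt-Co3 and 31.0% for mt-Nd4l, and below 3% for the other 5.

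All copies together held 25.1% to 26.0% of the counts of the mRNAs and copies. That share varied by 1.04-fold between libraries, while the division within a pair varied more, from 20.9% in mouse 700 to 43.1% in mouse 703 for mt-Nd4l. By counting error alone, the 95% Wilson interval of these shares was at most 1.02 percentage points to either side. The interval does not cover how reads of identical sequence were divided between a gene and its copy. Whether any read came from chromosome 1 was not tested, as the files hold no reads.

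With the values as deposited, the 13 mRNAs stood in an order that began with mt-Co1 and ended with mt-Nd6. mt-Co1 (chrM:5328-6872), the catalytic subunit of cytochrome c oxidase, had 7136, 8702, 8675, 6818, 6867 and 9323 TPM in mice 678, 687, 688, 698, 700 and 703 and ranked first in each. mt-Atp8, a small membrane subunit of the ATP synthase, ranked second in each with 4527, 6979, 5916, 4573, 4552 and 6954 TPM. Its place rests on its length, as a mean effective length of 49.2 to 58.0 bases was used for a transcript of 204 bases, and by counts per kilobase of full length it ranked number 6.

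mt-Cytb (chrM:14145-15288), the sole subunit of Complex III encoded here, held place 3 in each library with 3793, 4875, 4411, 3425, 3755 and 5147 TPM. mt-Nd1 (chrM:2751-3707), a subunit of the membrane arm of Complex I, held place 4 in each with 3401, 4304, 3752, 2906, 3065 and 4141 TPM. mt-Nd4, a proton-pumping subunit of Complex I, held place 5 in each with 2271, 3100.5, 2575, 1882, 2195 and 3052 TPM. These 5 kept their place in all 6 libraries, although the ranges of neighbours overlapped between libraries.

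The middle of the order was less fixed. mt-Nd2 (chrM:3914-4951) had a median of 1701 TPM, mt-Nd4l of 1455, mt-Nd5 (chrM:11742-13565) of 1300.2, mt-Co3 (chrM:8607-9390) of 1218, mt-Atp6 of 1167 and mt-Nd3 (chrM:9459-9806) of 1077. mt-Co3 took places from 6 to 11 depending on the library, and was above mt-Atp6 in 2 of 6. For 10 of the 12 pairs of neighbours in the order of medians, the ranges over libraries overlapped.

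The last 2 places were the same in each library, and their ranges were separate from those of the neighbour above. mt-Co2 (chrM:7013-7696) had 815, 816, 635, 490.0, 763 and 817 TPM. mt-Nd6, the Complex I subunit of the minus strand, had 342, 355, 315, 314, 236 and 338 TPM. mt-Nd6 was thus 20.8-fold to 29.1-fold below mt-Co1. It overlaps mt-Nd5 by 14 bases on the opposite strand, and the strand setting of the counting could not be read from any source at hand.

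**Figure D4:**
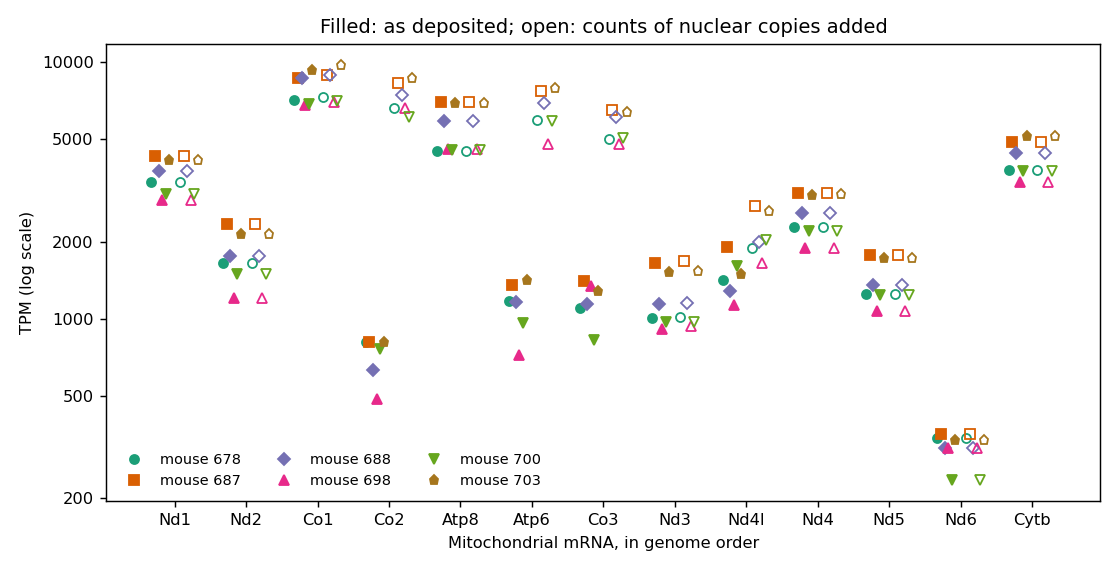
TPM on a log scale (y axis) of the 13 mRNAs in genome order (x axis) in each of the 6 libraries, as deposited (filled) and with the counts of the nuclear copies added over the effective length of the member (open). The median of mt-Co2 was 789 as deposited and 7037 with copies added, that of mt-Atp6 1167 and 6424, and that of mt-Co3 1218 and 5587, while mt-Nd6 had the lowest values in both.

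Adding the counts of the copies to their members changed this order more than any difference between libraries. mt-Co2 moved from place 12 to place 2 in all 6 libraries, with 6657, 8319.7, 7417, 6624, 6112 and 8692 TPM. mt-Atp6 moved to place 3 in each library and mt-Co3 to place 4 by its median, whereas mt-Co1 stayed first and mt-Nd6 last. The sum assigns every count of the copies to the mitochondrial gene, and whether that is right was not tested.

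Ratios within the bicistronic pairs moved as well. As deposited, mt-Atp8 was above mt-Atp6 by 3.87-fold to 6.30-fold in TPM. With copies added the ratio was 0.763 to 0.951, below 1 in each library. No counts were added to mt-Atp8, for which no annotated copy was found. For mt-Nd4l over mt-Nd4 the ratio was 0.490 to 0.733 as deposited and 0.772 to 0.926 with copies added, and for mt-Co1 over mt-Co2, 2 separate mRNAs of Complex IV, it was 8.75 to 13.9 and 1.06 to 1.20.

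By respiratory complex, the 7 mRNAs of Complex I (mt-Nd1 to mt-Nd6 and mt-Nd4l) held 35.2% to 39.0% of the mRNA TPM, the 3 of Complex IV (mt-Co1 to mt-Co3) 27.6% to 32.3%, the 2 of Complex V (mt-Atp6 and mt-Atp8) 19.1% to 21.3% and mt-Cytb of Complex III 12.3% to 13.1%. Within the mRNAs, the shares of mt-Cytb and mt-Nd1 varied least between libraries, by 1.07-fold and 1.08-fold. The share of mt-Co3 varied most, by 1.72-fold, from 2.91% in mouse 700 to 5.02% in mouse 698. With copies added, the share of mt-Co3 varied by 1.10-fold, from 10.6% to 11.7%, and that of mt-Nd6 varied most, by 1.41-fold. The median share of Complex IV was then 42.0% in place of 30.0%, and that of Complex I 25.8% in place of 37.3%.

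Differences between libraries were set beside those of all detected genes. The spread of a gene was taken as its highest over its lowest library in CPM scaled by TMM, a method that sets libraries to a common scale from the bulk of genes. For 11 of the 13 mRNAs it was at least 1.5-fold, beside 28.2% of the 15013 genes with at least 10 counts in every library. The highest library was at least 25% above the lowest for all 13, beside 60.8% of genes. The median was 1.74 over the mRNAs and 1.31 over all detected genes. Among the 500 detected genes of highest median CPM, a set nearer to the mRNAs in depth, 42 passed 1.5-fold and the median was 1.20. Both sets were taken over all detected genes. Mitochondrial mRNAs and their nuclear copies can therefore be among them, and among the 42 that passed.

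mt-Nd2 had the largest spread of the 13 mRNAs at 2.05, followed by mt-Atp6 at 1.97, mt-Nd3 at 1.88 and mt-Co2 at 1.84. mt-Nd6 at 1.34 and mt-Co1 at 1.35 were the 2 that did not pass. mt-Cytb at 1.508, mt-Co3 at 1.510 and mt-Atp8 at 1.522 passed narrowly. The rRNAs were at 1.18 for mt-Rnr1 and 1.22 for mt-Rnr2. The median was 1.31 over all detected genes and 1.20 over the 500 of highest median CPM, and mt-Rnr2 lay above the latter.

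**Figure D5:**
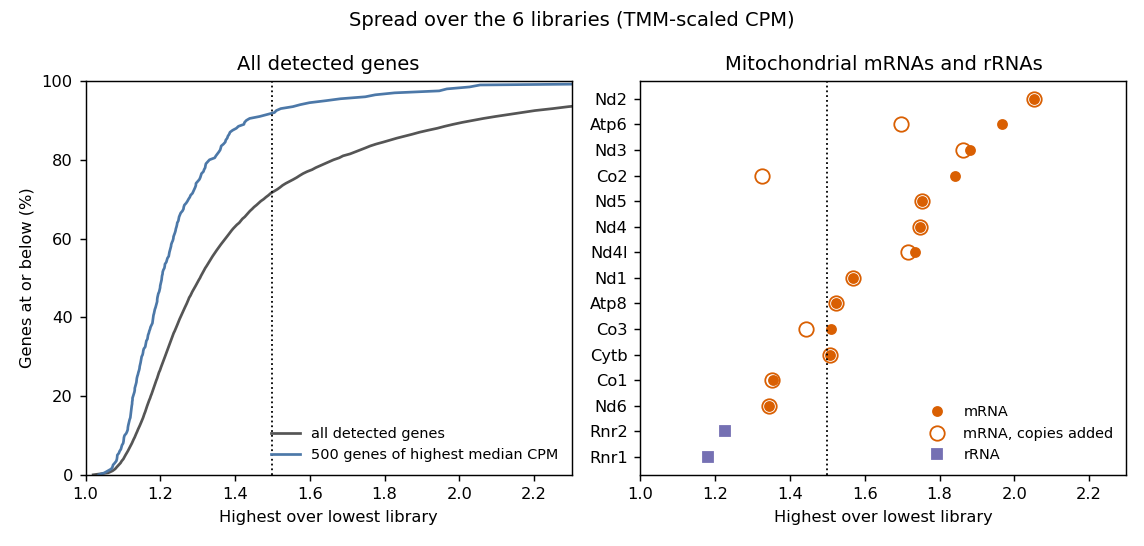
Highest over lowest of the 6 libraries in TMM-scaled CPM (x axes), as cumulative share of all 15013 detected genes and of the 500 with the highest median CPM (left, y axis in %), and for each mitochondrial mRNA and rRNA (right), with open circles for mRNAs with copies added. The dotted line marks 1.5-fold, which 11 of 13 mRNAs passed as deposited and 9 with copies added.

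The same libraries stood at the ends for most of the mRNAs. Mouse 687 was highest for 12 of the 13 in CPM and mouse 698 lowest for 11, and in TPM these counts were 9 and 10. Without mouse 687 the number past 1.5-fold fell from 11 to 4, and without mouse 698 to 3, while the share of all detected genes was 24.7% and 25.9% then. With the counts of copies added, 9 of 13 passed, as mt-Co2 had a spread of 1.32 and mt-Co3 of 1.44. Mouse 687 had the deepest library, with 44463362 expected counts, and mouse 698 the shallowest, with 34689262, and the cortex markers summed to 2340 and 2489 TPM in them. The part of depth, of cell makeup or of genotype in the spread was not tested, and no library is tied to a genotype. In bulk RNA fewer cells of a type and less RNA per cell cannot be told apart.

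The nuclear genes that work with the mitochondrial ones were compared by lists. The nuclear subunits of Complexes I, III, IV and V are assembled with the mitochondrial subunits, and Complex II has none of the latter. Summed TPM was 1663 to 2285 for 37 nuclear genes of Complex I, 176 to 212 for 4 of Complex II, 611 to 809.6 for 9 of Complex III, 1836 to 2245 for 11 of Complex IV and 1573 to 2027 for 15 of Complex V. Per library, the mitochondrial mRNAs exceeded the nuclear ones of Complexes I, III, IV and V together by 4.07, 5.67, 6.01, 4.02, 4.45 and 5.70 times in mice 678, 687, 688, 698, 700 and 703. The ratio was lowest in mouse 698, as was the mitochondrial level, but highest in mouse 688, in which the nuclear sums of Complexes I to V were lowest. With copies added it was 6.15 to 9.25, with mouse 678 lowest, next to 6.19 in mouse 698, and mouse 688 again highest.

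Per gene the difference was larger, since few genes are mitochondrial. As deposited, the mean mitochondrial mRNA of Complex I was 25.1 to 38.7 times the mean nuclear one in TPM, with a median of 33.6. That of Complex IV had a median of 17.0 times. With copies added, the medians were 35.2 times for Complex I and 36.8 times for Complex IV. Which of Complexes I and IV had the higher median thus depended on whether copies were added. Complex III had the highest median in both settings, at 53.6 times, and Complex V had 27.9 times as deposited and 50.8 times with copies added. Of the nuclear genes named, which are the 2 of highest median TPM in each list, Atp5b, a catalytic subunit of the ATP synthase, had 362 to 439 TPM and Atp5a1, its partner in the catalytic head, 178 to 222. Cox4i1 had 261 to 378 and Cox8a 314 to 400 (Complex IV), Ndufa3 85.8 to 122 and Ndufb9 92.5 to 135 (Complex I), Uqcr10 97.1 to 134 and Uqcr11 115 to 136 (Complex III), and Sdhb 41.6 to 52.8 and Sdha 70.1 to 85.3 (Complex II). mt-Nd6, the lowest of the mitochondrial mRNAs, thus lay within the range of the highest nuclear subunits.

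Of the nuclear subunits, 14 of 37 of Complex I, 0 of 4 of Complex II, 2 of 9 of Complex III, 2 of 11 of Complex IV and 4 of 15 of Complex V passed 1.5-fold between libraries, and the median spread of a list was at most 1.44. The background was again 28.2% of detected genes.

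The nuclear mRNAs for proteins that transcribe, replicate, process or translate the mitochondrial genome were far below the mitochondrial mRNAs in summed TPM. Levels of the proteins themselves were not measured here. The 9 genes of mitochondrial transcription summed to 32.7 to 44.6 TPM, and among them Polrmt, the mitochondrial RNA polymerase, had 4.68 to 6.52 TPM and Tfam, which packages and helps to transcribe mitochondrial DNA, 8.51 to 11.7. The 7 genes of mitochondrial DNA replication summed to 21.6 to 28.9 TPM, with Polg, the catalytic subunit of the DNA polymerase, at 8.18 to 12.2 and Top1mt, a topoisomerase, at 3.59 to 4.53.

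The 20 genes of mitochondrial RNA processing and stability summed to 140.4 to 174 TPM, with Grsf1, an RNA-binding protein of mitochondrial RNA granules, at 25.1 to 30.2 and Fastk at 20.3 to 26.2. The 12 mitochondrial translation factors summed to 68.1 to 87.6 TPM, with Tufm, the elongation factor that brings aminoacyl-tRNA to the mitochondrial ribosome, at 15.4 to 21.6 and Oxa1l, which inserts new subunits into the inner membrane, at 8.96 to 12.3. In these 4 lists 0 of 8 detected genes of transcription, 2 of 7 of replication, 3 of 20 of processing and 0 of 12 translation factors passed 1.5-fold, beside 28.2% of all detected genes. Mouse 703 had the highest sum in all 4 lists, in TPM, and mouse 700 the lowest. Nuclear protein-coding genes as a whole also held the largest share of TPM in mouse 703 (28.8%) and the smallest in mouse 700 (22.7%). The part of TPM scaling in this order was not tested.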

How the data were processed

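RNA-seq of 6 numbered mice was used, 1 file per mouse. According to the methods and the processing notes, the authors used cutadapt to trim paired reads, STAR for alignment to mm10 and RSEM for quantification (versions and the strand setting: not given in the sources used here). For these samples the labels name TRIzol and a directional kit. The sequencing methods name RNeasy columns and a library kit that they do not call directional. The reagent list holds TRIzol, RNeasy and the directional kit, so whether the libraries are directional is unsettled here. In each account rRNA was depleted. The methods name UCSC annotations, whereas the files list Ensembl transcripts. The authors deposited expected counts per transcript, not normalized, and TPM scaled over 142351 transcripts. A further 12 columns (FPKM and isoform percentages) were not used, and 0 columns could be tied to a labelled sample, so no comparison between genotypes was made.

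Transcripts were matched to GENCODE M21 without version (99.36%, the 910 others held 0.246% to 0.272% of counts). All 37 members matched with 1 transcript each and the annotated length. Gene counts were summed and rounded, then scaled by TMM (edgeR 4.0.16, R 4.3.3). Copies were found with blastn 2.17.0 (megablast) among annotated nuclear transcripts. For levels with copies added, their counts were added to those of the member and divided by the member's effective length. Members and lists were chosen with earlier results of these data known. The rule for naming took all members, the 2 genes of highest median TPM per nuclear list and the 5 copies of highest median count. Alternatives were TPM, other denominators, DESeq2 1.42.0 size factors, fold 1.25, a minimum of 1 count, 90% identity, added copies and leaving out each library. Intervals cover counting error only, since reads without molecular identifiers are not independent molecules.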

Additional observations from a re-analysis of the deposited data

Results flagged for a closer look

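A library was taken to stand apart when its gap to the nearest other library exceeded 0.625 of the whole range (Dixon's ratio for 6 values). For separate sets of normally distributed values, chance flags about 1 in 20. Of 69 sets, 3 were flagged here, and 2 of these describe the same copy. The 69 sets share counts, and pair ratios are identical in TPM and in TPM rescaled over nuclear protein-coding genes. Therefore 3 of 69 cannot be compared with that rate.

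In mouse 700, mt-Nd6 had 236 TPM (235.98), below the range of 314 to 355 TPM in the other 5 libraries. This gap did not stand out on other scales, which were tried after seeing the data: mouse 700 had 97.5 CPM scaled by TMM against 105 to 131 in the others, and 1041 against 1173 to 1447 in TPM rescaled over nuclear protein-coding genes. The latter held 22.7% of TPM in mouse 700, the lowest of the 6 values. In mouse 703, Gm29216, the chromosome 1 copy of the 3′ part of mt-Co1, had 1864 TPM, while the other 5 libraries had 813 to 946. It stood apart on both of the other scales as well, with 537 CPM against 264 to 332. Accordingly, the copies of mt-Co1 had 4.59% of the counts of the pair in mouse 703, against 2.54% to 2.95% in the others. The cause of these differences was not tested.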

How the results depend on the processing

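No paired analysis was possible because no deposited file is tied to a labelled replicate and no groups were compared. The median mRNA share was 2.73% of counts, 3.20% of TPM, 4.37% of the counts of nuclear protein-coding genes and 3.68% of counts with copies added. The median rRNA share was 23.0%, 21.4% of TPM and 36.7% of nuclear protein-coding counts, and that of tRNA 3.16e-05%, 0% and 4.92e-05%. By median level, mt-Co2 held place 12 in TPM, 11 per kilobase of length and 2 with copies added. The ratio of mt-Rnr1 to mt-Rnr2 was 1.22 in TPM and 0.680 in counts. The ratio of mitochondrial to nuclear respiratory mRNAs was 5.06, and 7.68 with copies added, an alternative that was chosen after seeing the data, as was adding copies to the spread (9 mRNAs past 1.5-fold).

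Leaving out each library gave 2.69% to 2.77% for the mRNA share, 22.5% to 23.5% for rRNA, 2.88e-05% to 3.43e-05% for tRNA, 1.39 to 1.48 for the spread of the summed mRNAs, 1.20 to 1.24 for the rRNA ratio, 25.9% for the copies, 4.45 to 5.67 for the nuclear ratio, and 3 to 11 mRNAs past 1.5-fold (3 without mouse 698, 4 without mouse 687). mt-Co1 kept place 1 and mt-Co2 place 12. The tRNAs had an effective length of 0 in every library, and counts alone cannot divide reads between identical sequences.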
